A study of Mus musculus with 12 samples.

Results

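Growth factor and interleukin transcripts were followed in sorted mouse natural killer (NK) cells through 8 genes: Csf1, Csf2, Il2, Il3, Il10, Il13, Lif and Osm. They were taken by gene symbol from a table of 55487 features, and all 8 were found, each once. NK cells are innate lymphocytes that kill target cells and secrete cytokines. The mice were of the strain B6.129S4-Ifngtm3.1Lky/J and homozygous for the altered allele (mut/mut in the labels), in which a yellow fluorescent protein (YFP) sequence is joined to the interferon gamma gene Ifng. All 12 samples carried this allele, so no wild-type cells were compared. All cells had been primed with IL-15 (HD IL-15 in the labels). Unstimulated cells (4 samples) were compared with cells stimulated for 6 h through NK1.1, an activating receptor, with an antibody and sorted into reporter-negative cells (YFP-, 4 samples) and reporter-positive cells (YFP+, 4 samples). The time of 6 h is recorded for the stimulated samples alone. Whether unstimulated cells spent the same time in culture is not recorded, so stimulation and any such difference cannot be told apart. Samples carry the replicate labels f2, m2, m3 and m4 in each group. The labels give no age and do not say whether samples came from separate mice, so the tests measure the spread between these samples, which may be technical. YFP- and YFP+ cells were divided by the reporter of 1 cytokine gene, so the sort itself is a selection on cytokine output.

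The 8 genes encode secreted proteins that act on haematopoietic cells. Csf1 (M-CSF) maintains monocytes and macrophages, Csf2 (GM-CSF) acts on granulocytes, macrophages and dendritic cells, and Il3 acts on early progenitors, mast cells and basophils. Il2 is a growth factor of activated lymphocytes and is best known from T cells. Il13 belongs to type 2 immunity and Il10 restrains inflammation. Lif and Osm are cytokines of the IL-6 family that signal through the shared receptor chain gp130, encoded by Il6st. Csf2 is a well-known product of activated NK cells, whereas Il2, Il3 and Il13 are better known from T cells, mast cells or group 2 innate lymphoid cells.

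Each library held between 32.1 and 54.2 M reads (M, mega). Levels are given as reads relative to that total (CPM, counts per M reads), and the floor of 3 reads, the smallest level taken as shown, lay between 0.0553 and 0.0933 CPM. rRNA-like features held 27.4 to 35.3% of reads, 15.9 to 30.3% and 13.7 to 29.8% in the unstimulated, YFP- and YFP+ groups. Ifng, the gene behind the sort, averaged 3.92 ± 0.239 CPM (SD, n = 4), 45.8 ± 7.37 and 329 ± 18.2 in the unstimulated, YFP- and YFP+ groups, in the order of the labels. All 10 NK cell markers averaged at least 1 CPM in every group, including Ncr1 and Gzma. The NK marker Klrb1c, which encodes NK1.1 itself, averaged 308 CPM, 75.3 and 6.50 in the unstimulated, YFP- and YFP+ groups.

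Detection divided the 8 genes. Il2, Lif and Osm had at least 3 reads in all 12 samples. Csf1 reached 3 reads in 8 samples, all of them stimulated, and Csf2 in 10, of which 8 were stimulated. Il3 reached 3 reads in 5 samples, Il13 in 2 and Il10 in 1. Csf1, Csf2, Il2, Lif and Osm passed the filter for the test across genes, which asked for a log2 CPM over 0 in 4 or more samples and kept 12364 genes. Csf1, Csf2 and Lif passed it through stimulated samples alone, so their differences from unstimulated samples are partly built into the filter.

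**Figure D1:**
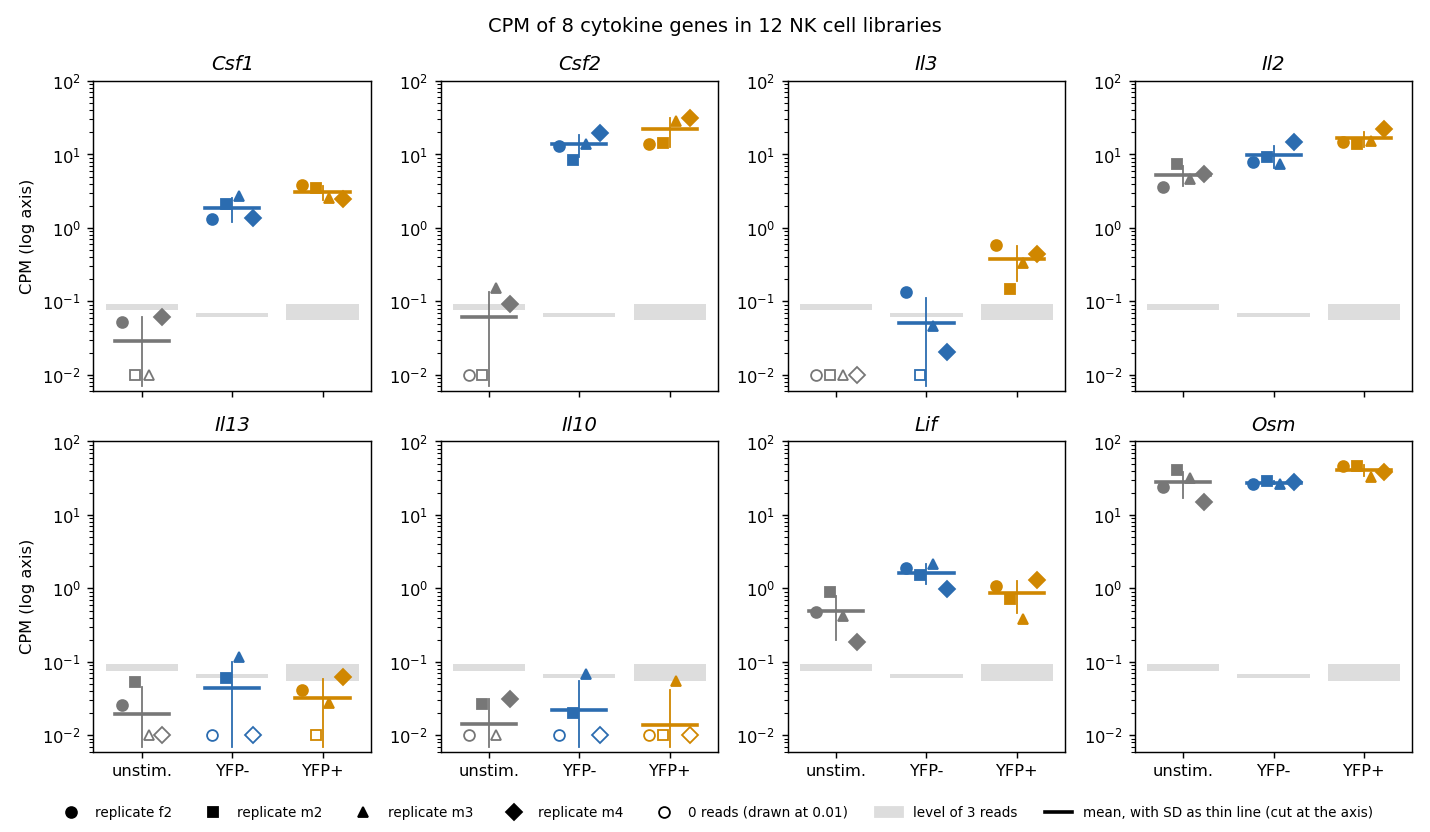
Level of each cytokine gene in each library, in CPM on a log axis, with 1 panel per gene and 1 symbol per replicate label. Thick lines are group means, thin lines SDs cut at the lower axis limit, grey bands the level of 3 reads in the libraries of that group, and open symbols libraries with 0 reads. Csf1 and Csf2 lie near or below the bands in unstimulated samples and well above them after stimulation, while Il10 and Il13 lie at or under the bands in nearly all libraries.

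In GRCm38, 5 of the 8 genes lie on chromosome 11. Osm (chr11:4236420-4241026, plus strand) and Lif (chr11:4257557-4272514, plus strand) are 16.5 kb apart, and Csf2 (chr11:54247271-54249667, minus strand) and Il3 (chr11:54265303-54267277, minus strand) are 15.6 kb apart. Il13 (chr11:53631324-53634702, minus strand) lies 613 kb from Csf2, in the cluster with Il4 and Il5. Il2 (chr3:37120523-37125959) and Csf1 (chr3:107741048-107760469) lie on the minus strand of chromosome 3, and Il10 (chr1:131019845-131024974) on the plus strand of chromosome 1. In GENCODE, Il2 overlaps Adad1 and Csf2 overlaps the antisense gene Gm12223, both on the opposite strand. Neither had more than 2 reads in any library.

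RefSeq promoter windows were found for 6 of the 8 genes, all but Il10 and Osm. The 250 bases before the RefSeq start are shown, 5′ to 3′ along the gene, for the 4 genes that rose in YFP- samples and for Il13, which stayed at the floor. Capitals mark the motifs searched on both strands: the NFAT core GGAAA, AP-1 (TGANTCA), CRE (TGACGTCA), TATAAA and the NF-kB consensus. NFAT, AP-1 and NF-kB factors are known to act downstream of antigen and activating receptors at many cytokine promoters.
Csf1 (GRCm38.p6 chr3:107760470-107760719, minus strand): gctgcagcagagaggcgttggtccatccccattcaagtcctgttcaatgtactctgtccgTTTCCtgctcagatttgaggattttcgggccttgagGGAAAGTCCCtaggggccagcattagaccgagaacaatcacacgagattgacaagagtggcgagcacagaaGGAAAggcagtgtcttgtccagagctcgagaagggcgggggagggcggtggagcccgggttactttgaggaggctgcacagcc
Csf2 (GRCm38.p6 chr11:54249900-54250149, minus strand): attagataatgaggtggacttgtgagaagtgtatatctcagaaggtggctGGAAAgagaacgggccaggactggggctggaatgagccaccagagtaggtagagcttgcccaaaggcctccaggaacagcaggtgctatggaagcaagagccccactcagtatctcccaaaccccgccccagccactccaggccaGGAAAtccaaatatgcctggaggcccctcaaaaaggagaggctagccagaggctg
Il2 (GRCm38.p6 chr3:37125955-37126204, minus strand): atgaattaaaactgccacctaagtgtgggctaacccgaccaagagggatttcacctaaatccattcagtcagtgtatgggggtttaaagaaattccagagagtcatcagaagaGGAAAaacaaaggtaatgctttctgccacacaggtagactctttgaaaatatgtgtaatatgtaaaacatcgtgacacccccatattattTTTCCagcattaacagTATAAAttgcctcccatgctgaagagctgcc
Lif (GRCm38.p6 chr11:4257318-4257567, plus strand): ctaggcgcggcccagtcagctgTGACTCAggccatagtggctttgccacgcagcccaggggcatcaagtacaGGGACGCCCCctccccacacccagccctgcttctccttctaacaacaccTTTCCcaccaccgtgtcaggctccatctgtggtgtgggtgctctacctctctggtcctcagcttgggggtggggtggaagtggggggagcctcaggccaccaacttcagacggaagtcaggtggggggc
Il13 (GRCm38.p6 chr11:53634703-53634952, minus strand): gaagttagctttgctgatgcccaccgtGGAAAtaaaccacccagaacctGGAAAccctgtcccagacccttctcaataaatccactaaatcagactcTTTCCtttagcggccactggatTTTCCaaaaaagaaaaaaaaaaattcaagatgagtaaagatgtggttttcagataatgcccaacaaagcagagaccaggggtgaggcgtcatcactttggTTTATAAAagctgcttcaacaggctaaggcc
These windows hold 3 places with the NFAT core in Csf1, 2 in Csf2, 2 in Il2, 1 in Lif and 4 in Il13, and the Il3 window holds 1. At least 1 such place occurs in 55.6% of the 32851 promoter windows of that length, at least 2 in 21.4% and at least 3 in 6.39%. Lif alone among the 6 has an AP-1 match, which 6.75% of all windows hold, and Csf1 and Lif each have 1 NF-kB match, which 7.25% hold. The Csf1 NF-kB match overlaps an NFAT core, so the shared bases are marked once. TATAAA stands in Il2 and, at 2 overlapping places on opposite strands, in Il13, against 12.4% of all windows, and none of the 6 has the CRE, which 1.55% hold. The Csf2 window ends 233 bases before the GENCODE start of that gene and so does not cover the bases next to that start.

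The haematopoietic growth factor genes Csf1 and Csf2 went from near the floor to clearly measured levels in both stimulated groups. In bulk RNA, more cells with a transcript and more transcript per cell cannot be told apart. Csf2 had 0, 0, 6 and 3 reads in unstimulated samples f2, m2, m3 and m4, which is at most 0.151 CPM. In YFP- samples it stood at 12.9, 8.47, 14.1 and 19.8 CPM, and in YFP+ samples at 14.1, 14.2, 28.4 and 31.8 CPM. Every stimulated sample was far above every unstimulated one, and the 2 stimulated groups overlapped. Within YFP+, samples m3 and m4 had about the same level, above f2 and m2, which were also close to each other.

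Summed over libraries, Csf2 was 228-fold higher in YFP- than in unstimulated samples (95% interval for counting error alone, 120 to 499). The ratio of YFP+ to unstimulated samples was 337 (177 to 738). The fitted log2 difference was 8.37 (SE 0.73, limma adjusted p = 1.3e-06) for YFP- over unstimulated and 9.01 (adjusted p = 2.2e-07) for YFP+ over unstimulated. With so few unstimulated reads these fitted values depend on the value added before the logarithm: with 1 CPM added they were 3.75 and 4.35, still called. YFP+ exceeded YFP- by 0.64 (95% interval -0.94 to 2.22, adjusted p = 0.58), so a difference between the stimulated groups was not shown.

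Csf1 behaved similarly at a lower level. It had 2, 0, 0 and 2 reads in the unstimulated samples, under the floor in each. YFP- samples stood at 1.31, 2.13, 2.696 and 1.35 CPM, and YFP+ samples at 3.82, 3.48, 2.54 and 2.49 CPM. The stimulated groups overlapped, since YFP- sample m3 was above YFP+ samples m3 and m4. The summed ratio to unstimulated samples was 69.0 (26.7 to 255) for YFP- and 119 (46.0 to 437) for YFP+. The fitted log2 differences were 5.95 (SE 0.59, adjusted p = 3.5e-06) and 6.71 (adjusted p = 4.3e-07), or 1.45 and 1.98 with 1 CPM added. YFP+ over YFP- was 0.76 (95% interval -0.51 to 2.03, limma adjusted p = 0.39), and it was called only with 1 CPM added (0.52, adjusted p = 0.038).

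Csf1 and Csf2 did not order the YFP+ samples alike. Csf1 was higher in f2 and m2 than in m3 and m4, whereas Csf2 was higher in m3 and m4. The f2 and m2 libraries held 48.9 and 54.2 M reads and the m3 and m4 libraries 36.2 and 32.1 M. Their rRNA-like shares also differed, at 13.7 and 16.3% in f2 and m2 and 29.8 and 23.1% in m3 and m4. With 2 samples against 2 chosen after their values were seen, no test was made. The parts of library size and of the rRNA-like share were not tested.

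Il3, the neighbour of Csf2, was detected mainly in YFP+ samples. It had 0 reads in all 4 unstimulated samples, which allows up to 0.0202 CPM over the group. YFP- samples had 6, 0, 2 and 1 reads, or 0.135, 0, 0.0461 and 0.0204 CPM. YFP+ samples had 29, 8, 12 and 14 reads, or 0.593, 0.147, 0.331 and 0.436 CPM. The lowest YFP+ sample, m2, lay just above the highest YFP- sample, f2, so the groups did not overlap.

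The summed Il3 level in YFP+ samples was 7.59-fold that in YFP- samples (3.76 to 17.4, counting error alone). Set against a floor of 3 reads over the unstimulated group, where Il3 had 0, the summed YFP+ level was 18.2-fold higher. The 95% lower limit of the ratio to unstimulated samples for counting error, from 63 reads against 0, was 14.3-fold. Il3 failed the filter on low values, so its CPM was compared with a 2-sided exact permutation test, which cannot go below p = 0.0286 with 4 against 4 samples. YFP+ against YFP- and YFP+ against unstimulated samples both gave an exact p of 0.0286, and YFP- against unstimulated samples one of 0.143. In limma without a filter, Il3 was 4.83 higher on the log2 scale in YFP+ than in unstimulated samples (adjusted p = 0.0018). The same fit gave 3.02 for YFP+ over YFP- (adjusted p = 0.088), which did not pass. These exact p-values are not adjusted for the number of genes examined.

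Il2, the lymphocyte growth factor, was already present before stimulation and rose in both stimulated groups. Unstimulated samples stood at 3.62, 7.37, 4.64 and 5.49 CPM, from 138 to 280 reads. YFP- samples stood at 7.95, 9.34, 7.44 and 14.7 CPM and YFP+ samples at 14.8, 13.9, 15.1 and 22.2 CPM. All stimulated samples were above all unstimulated ones, though YFP- sample m3 exceeded unstimulated m2 only slightly. The sample m4 was the highest in both stimulated groups.

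The fitted log2 difference of Il2 was 0.89 (SE 0.25, limma adjusted p = 0.00996) for YFP- over unstimulated samples and 1.67 (adjusted p = 7.0e-05) for YFP+ over unstimulated samples. YFP+ exceeded YFP- by 0.77 (SE 0.25, adjusted p = 0.045), and 3 of 4 YFP+ samples lay above every YFP- sample. That last call was near its threshold. It was lost in 15 of 31 alternatives, with adjusted p from 0.012 to 0.25 over all of them. Leaving out any 1 of 7 libraries ended it: unstimulated m3 or m4, YFP- f2, m2 or m3, or YFP+ m3 or m4, with adjusted p up to 0.14.

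Markers of T cells, a known source of Il2, were counted beside it. The summed CPM of 10 T cell markers ran from 513 to 582, 742 to 846 and 836 to 944 in the unstimulated, YFP- and YFP+ groups, so it moved in the same order as Il2. In each group 5 of the 10 averaged at least 1 CPM, with Trbc1 and Trbc2, constant segments of the T cell receptor beta chain, the highest. The defining markers Cd4, Cd8a and Cd8b1 averaged 0.0207 to 0.108 CPM in all groups, and Cd3e averaged 0.529, 0.915 and 0.0363 CPM in unstimulated, YFP- and YFP+ samples. Cd3g averaged 47.9, 32.5 and 20.6 CPM and Cd3d 17.8, 15.7 and 10.4 CPM in the same groups, both opposite to Il2. Trac averaged 7.43, 34.3 and 48.4 CPM and Cd5 0.0576, 0.603 and 0.825 CPM, in the order of Il2. Trbc1 (325, 467 and 522 CPM) and Trbc2 (156, 252 and 291 CPM), which carried the sum, also had that order. The part of such cells in the Il2 result was not tested.

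Lif and Osm, neighbours on chromosome 11 and relatives in the IL-6 family, differed in pattern. Lif was low throughout and highest in YFP- samples. Unstimulated samples stood at 0.472, 0.894, 0.427 and 0.185 CPM, YFP- samples at 1.90, 1.54, 2.14 and 0.979, and YFP+ samples at 1.06, 0.719, 0.387 and 1.31. YFP- samples did not overlap with unstimulated ones, by a small margin between YFP- m4 and unstimulated m2. YFP+ samples overlapped with both other groups.

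Lif rose by 1.84 on the log2 scale in YFP- over unstimulated samples (SE 0.48, limma adjusted p = 0.0060), a summed ratio of 3.20 (2.48 to 4.18, counting error alone). The filter kept Lif through stimulated samples alone, and with 1 CPM added its log2 difference was 0.82 (limma adjusted p = 0.0031). In YFP+ over unstimulated samples the value was 0.86 (95% interval -0.18 to 1.90, adjusted p = 0.14). Without YFP+ sample m3 it was 1.20 (adjusted p = 0.040) and without unstimulated sample m2 1.21 (adjusted p = 0.045). YFP+ over YFP- was -0.98 (95% interval -2.02 to 0.06, adjusted p = 0.17), so the lower level in YFP+ samples was not beyond the spread by this test. The summed CPM of dendritic cell markers was also highest in YFP- samples. The summed CPM of 4 dendritic cell markers was 2.16 to 3.57, 18.8 to 22.05 and 7.05 to 13.5 in the unstimulated, YFP- and YFP+ groups, carried by Zbtb46 and Xcr1, with Flt3 at 0.0329 to 0.104 and Siglech at 0 to 0.0208 CPM. The 6 markers of group 2 innate lymphoid cells summed to 48.6 to 53.5, 56.5 to 100.5 and 21.0 to 57.0 CPM, so that YFP- and YFP+ samples overlapped. Gata3 and Rora, which NK cells also express, carried that sum. Of its other members, Il1rl1 averaged 0.0651, 0.344 and 1.30 CPM and Il7r 1.5005, 1.37 and 0.0414 CPM, neither highest in YFP- samples. Arg1 averaged 0.112, 0.497 and 0.189 CPM and Il17rb 0.102, 0.142 and 0.0831 CPM, both highest in YFP- samples, as were Gata3 and Rora. The part of dendritic cells and group 2 innate lymphoid cells in the Lif result was not tested.

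Osm was the most abundant member by CPM in every group. Unstimulated samples stood at 24.1, 40.5, 32.3 and 15.0 CPM, a wide spread. YFP- samples stood close together at 26.5, 29.0, 26.5 and 27.9 CPM, inside the unstimulated range. YFP+ samples stood at 45.9, 46.1, 32.5 and 38.1 CPM, all above the YFP- samples and overlapping with the unstimulated ones.

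YFP+ over YFP- was 0.55 for Osm (SE 0.24, 95% interval 0.03 to 1.08) with a limma adjusted p of 0.125, so the separation of the groups did not pass over all genes. It passed under 5 of 31 alternatives, with centring on the sample median giving 0.81 (adjusted p = 0.013). YFP+ over unstimulated was 0.62 (adjusted p = 0.041), a call lost in 15 of 31 alternatives. Without unstimulated sample m4, the lowest library for Osm, it was 0.35 (adjusted p = 0.125), and leaving out any of 9 of the 12 libraries ended the call: unstimulated f2 or m4, any YFP- sample, or YFP+ f2, m2 or m4. YFP- over unstimulated was 0.06 (95% interval -0.46 to 0.59, adjusted p = 0.84), and its sign turned under centring, quantile normalization and totals without rRNA-like features.

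Il10 and Il13 were at the floor in all groups. Il10 had 2 reads over the 4 unstimulated, 4 over the YFP- and 2 over the YFP+ samples, and only YFP- sample m3 reached 3 reads (0.0691 CPM). Il13 had 3, 8 and 5 reads in the same groups, and only YFP- samples m2 and m3 reached 3 reads (0.0608 and 0.115 CPM). Exact permutation tests of CPM gave p from 0.49 to 1 over the 6 comparisons of these 2 genes. A change in either gene was not detectable at this depth. Unlike Il3 they gained no clear signal in YFP+ samples, and Il4 and Il5, the neighbours of Il13, had at most 2 reads in any library except YFP- libraries for Il5, where up to 11 reads occurred.

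Markers of mast cells, basophils and myeloid cells were set beside Csf1, Csf2 and Il3, and their part in those results was not tested. The summed CPM of 7 mast cell and basophil markers was 13.4 to 28.4, 10.0 to 26.0 and 17.1 to 28.9 in the unstimulated, YFP- and YFP+ groups, which overlapped. Mcpt8 carried this sum, while Fcer1a averaged 0.0921, 0.0507 and 0 CPM and Ms4a2 at most 0.0164 CPM. Hdc averaged 0.481 ± 0.185, 1.05 ± 0.541 and 1.09 ± 0.610 CPM (SD, n = 4), about the same in YFP- and YFP+ samples. Mcpt4 averaged 0.0707, 0.103 and 0.208 CPM, in the order of Csf1, Csf2 and Il3. Cpa3 averaged 1.99, 1.43 and 0.449 CPM, in the opposite order. The 9 markers of monocytes, macrophages and neutrophils summed to 7.53 to 10.3, 3.02 to 6.08 and 1.66 to 4.06 CPM, lower in stimulated samples. Itgam carried this sum and its fall, at 6.83, 3.19 and 2.21 CPM. Cd14 averaged 1.24, 0.718 and 0.322 CPM and Csf1r 0.230, 0.148 and 0.185 CPM. Of the 9, S100a9 had 0 reads in every group, Lyz2 and Ly6g had 0 in YFP- and Adgre1 had 0 in YFP+ samples. The 5 B cell markers summed to at most 4.19 CPM in any sample.

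Counted together, 4 of the 5 tested members (Csf1, Csf2, Il2 and Lif) were called higher in YFP- than in unstimulated samples and 0 lower, where 30.2% of all 12364 genes tested were called higher and 20.9% lower. Also 4 of 5 (Csf1, Csf2, Il2 and Osm) were called higher in YFP+ than in unstimulated samples and 0 lower, against 27.5% higher and 33.3% lower among all genes. In YFP+ over YFP-, 1 of 5 (Il2) was called higher and 0 lower, against 3.28% and 18.5%. Since Csf1, Csf2 and Lif passed the filter through stimulated samples alone, the counts over unstimulated samples and their medians are descriptions and support nothing. The median log2 difference of the 5 was 1.84, 1.67 and 0.64 in the 3 comparisons in that order, beside 0.14, -0.03 and -0.19 over all genes tested. The 3 comparisons share groups, so their counts are not independent of each other.

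These shares depend on the scaling of the libraries. For YFP+ over YFP- the 405 higher and 2286 lower calls became 1505 and 1491 with centring on the sample median, 1163 and 1430 with quantile normalization, and 1015 and 1675 with trimmed-mean scaling. Centring moved the median of all genes in that comparison from -0.19 to 0.07. For YFP- over unstimulated, 3735 higher and 2586 lower calls became 3070 and 3439 when rRNA-like features were left out of the totals. Relative to the median of all genes, Csf1, Csf2, Il2 and Osm lay on the higher side in YFP+ over YFP- and Lif on the lower side.

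**Figure D2:**
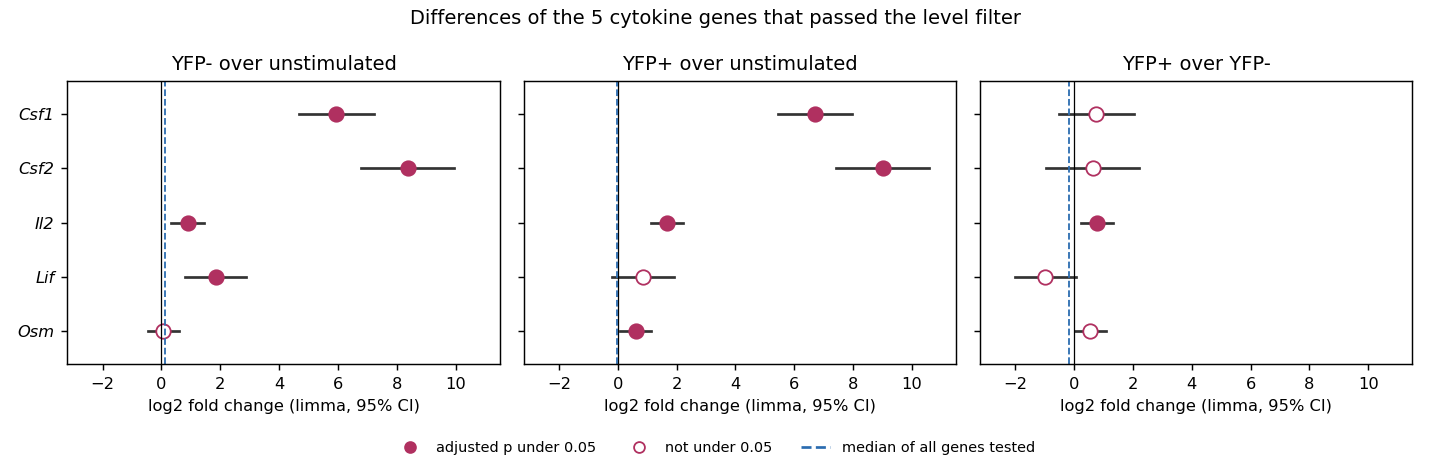
Differences of the 5 tested genes in the 3 comparisons, as log2 fold change on the horizontal axis with 95% intervals from limma. Filled points passed an adjusted p under 0.05, and the dashed line is the median of all 12364 genes tested. Csf1 and Csf2 lie between 5.95 and 9.01 over unstimulated samples, and in YFP+ over YFP- the Il2 point alone is filled.

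Levels of different genes were compared after division by exonic length, as CPM per kb. In unstimulated samples the order was Osm (12.3 ± 4.82, SD, n = 4), Il2 (4.61 ± 1.39) and Lif (0.114 ± 0.0678), with the other 5 at or under 0.0760. In YFP- samples it was Csf2 (17.3 ± 5.85), Osm (12.1 ± 0.527), Il2 (8.61 ± 2.89), Lif (0.377 ± 0.116) and Csf1 (0.354 ± 0.126). In YFP+ samples it was Csf2 (27.6 ± 11.6), Osm (17.9 ± 2.89), Il2 (14.4 ± 3.35), Il3 (0.599 ± 0.297), Csf1 (0.584 ± 0.127) and Lif (0.200 ± 0.0924). The ranges of Csf2 and Osm overlapped in both stimulated groups, as did those of Osm and Il2, of Lif and Csf1 in YFP- and of Il3 and Csf1 in YFP+ samples. By mean level Csf2 thus stood first in both stimulated groups. Its place before stimulation was not settled. It rested on 9 reads, with a range of 0 to 0.188 CPM per kb that overlapped those of Lif, Il13, Il10 and Csf1.

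The protein-coding genes next to the 8 were read from the same fit, up to 2 on each side within 250 kb. Of 23 such genes that are not themselves members 12 were tested. In YFP- over unstimulated samples 1 was higher (Dyrk3) and 4 lower (Gstm5, 4932438A13Rik, Cetn4 and Mtmr3), with a median of -0.25. In YFP+ over unstimulated samples 1 was higher (Ahcyl1, next to Csf1) and 6 lower, with a median of -0.78. Over all genes tested, 30.2% were higher and 20.9% lower in the first of these comparisons, with a median of 0.14. In the second, 27.5% were higher and 33.3% lower, with a median of -0.03. In YFP+ over YFP- samples 1 neighbour was higher (Ahcyl1, 0.71, limma adjusted p = 0.0011) and 2 lower (Dyrk3 and Castor1), with a median of -0.37. Over all genes tested these shares were 3.28% and 18.5%, with a median of -0.19. Under quantile normalization 2 neighbours were higher and 0 lower in YFP+ over YFP-, and 2 and 5 in YFP+ over unstimulated samples. Next to Csf2, P4ha2 averaged 17.4, 16.0 and 10.7 CPM in unstimulated, YFP- and YFP+ samples (YFP- over unstimulated 0.05, limma adjusted p = 0.94). Beyond it lies Pdlim4, which had 0 reads in unstimulated samples and averaged 0.299 and 0.487 CPM in YFP- and YFP+ samples, without passing the filter. Next to Osm, Castor1 averaged 4.29, 2.57 and 0.963 CPM and fell by 2.19 on the log2 scale in YFP+ over unstimulated samples (adjusted p = 0.00020).

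**Figure D3:**
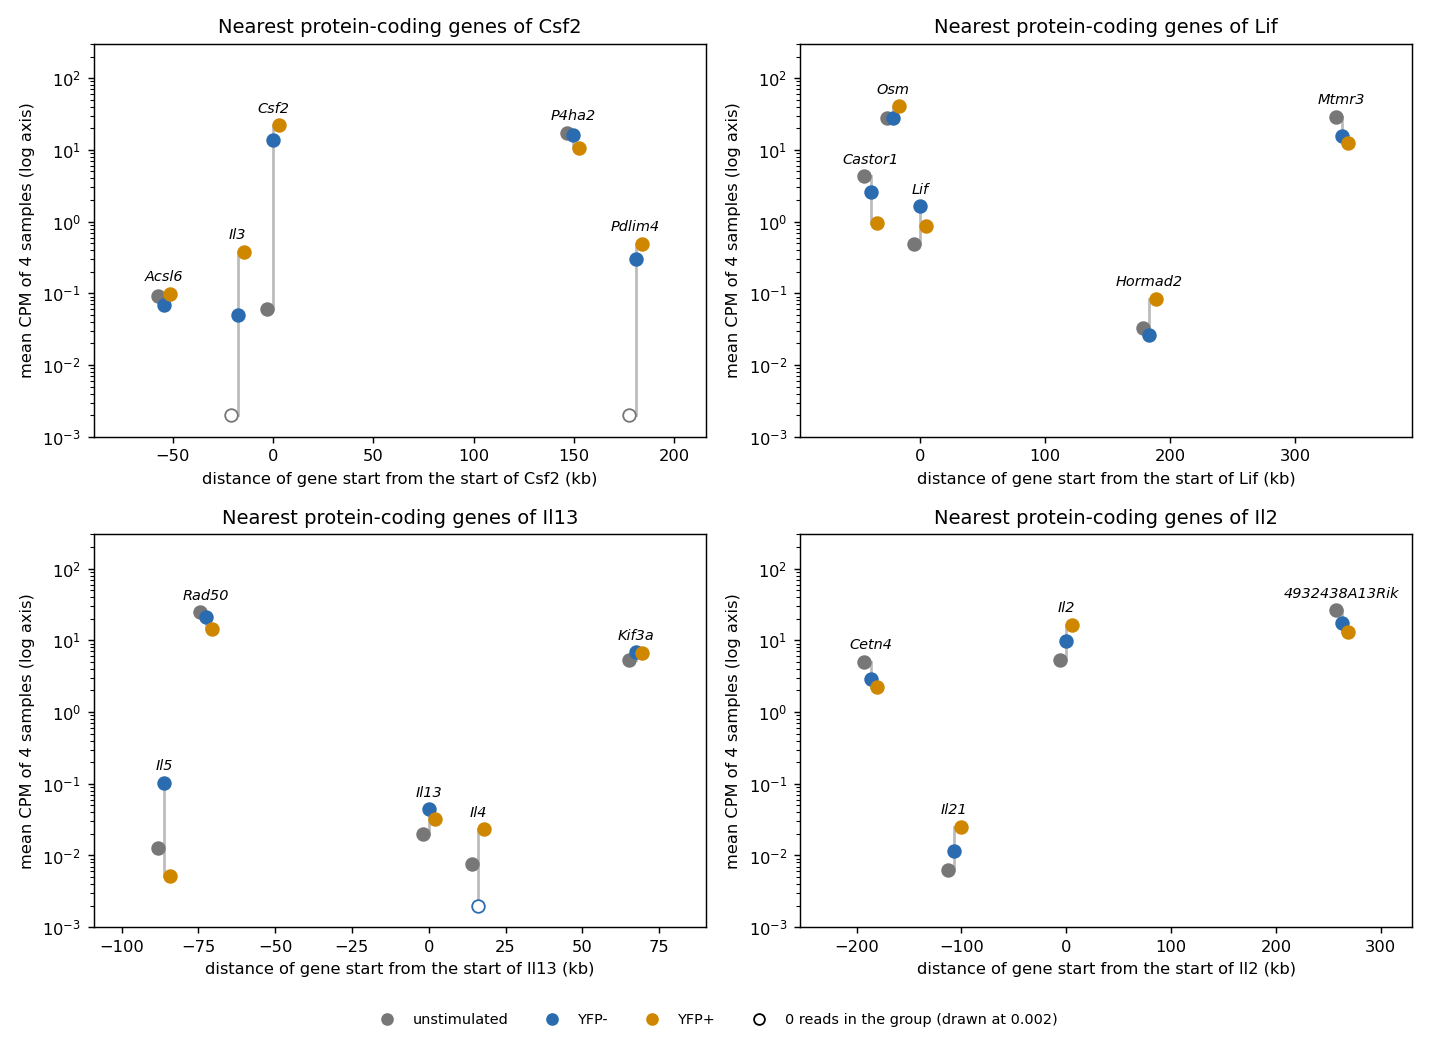
Mean CPM of 4 samples per group, on a log axis, for Csf2, Lif, Il13 and Il2 and their nearest protein-coding genes, against the distance between gene starts in kb along the member's strand. The 3 points of a gene are set slightly apart, and open points stand for groups with 0 reads. The Csf2 and Il3 points spread widely between groups, whereas the points of P4ha2 and Kif3a stay close together.

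The receptors through which these cytokines act were listed with 16 genes, of which 9 passed the filter. In YFP- over unstimulated samples 5 were higher (Csf2ra, Il2ra, Il2rg, Il4ra and Il6st) and 3 lower (Il3ra, Il10ra and Il10rb), with a median log2 difference of 0.79. In YFP+ over unstimulated samples 4 were higher (Csf2ra, Il2ra, Il2rg and Il4ra) and the same 3 lower, with a median of 0.62. In YFP+ over YFP- samples 0 were higher and 2 lower (Il10ra and Il10rb), with a median of -0.31. Over all genes tested, 30.2% were higher and 20.9% lower in the first of these comparisons, with a median of 0.14. The shares were 27.5% and 33.3% in the second (median -0.03) and 3.28% and 18.5% in the third (median -0.19). Il6st lost its call in YFP- over unstimulated with centring and with totals that left out rRNA-like features. It was called higher in YFP+ over unstimulated, making 5, with centring, quantile normalization and trimmed-mean scaling. Without rRNA-like features in the totals Il2rb was also lower in YFP+ over YFP-, making 3.

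Il2ra, the chain that gives the IL-2 receptor its high affinity, rose from 7.20 ± 1.34 CPM (SD, n = 4) in unstimulated to 288 ± 54.1 in YFP- and 232 ± 38.0 in YFP+ samples, by 5.32 and 5.01 on the log2 scale (limma adjusted p = 2.7e-10 for both). Csf2ra, the ligand-specific chain of the GM-CSF receptor, rose from 6.43 ± 0.767 to 13.8 ± 2.40 and 11.7 ± 2.59 CPM. Its signalling partner Csf2rb averaged 0.343, 0.473 and 0.351 CPM and did not pass the filter. Il10ra fell from 34.3 ± 1.27 to 20.2 ± 7.69 and 7.56 ± 1.63 CPM. The receptor genes Csf1r, Lifr, Osmr and Il13ra1 averaged at most 0.522 CPM in any group, and Il13ra2 had 0 reads throughout.

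**Figure D4:**
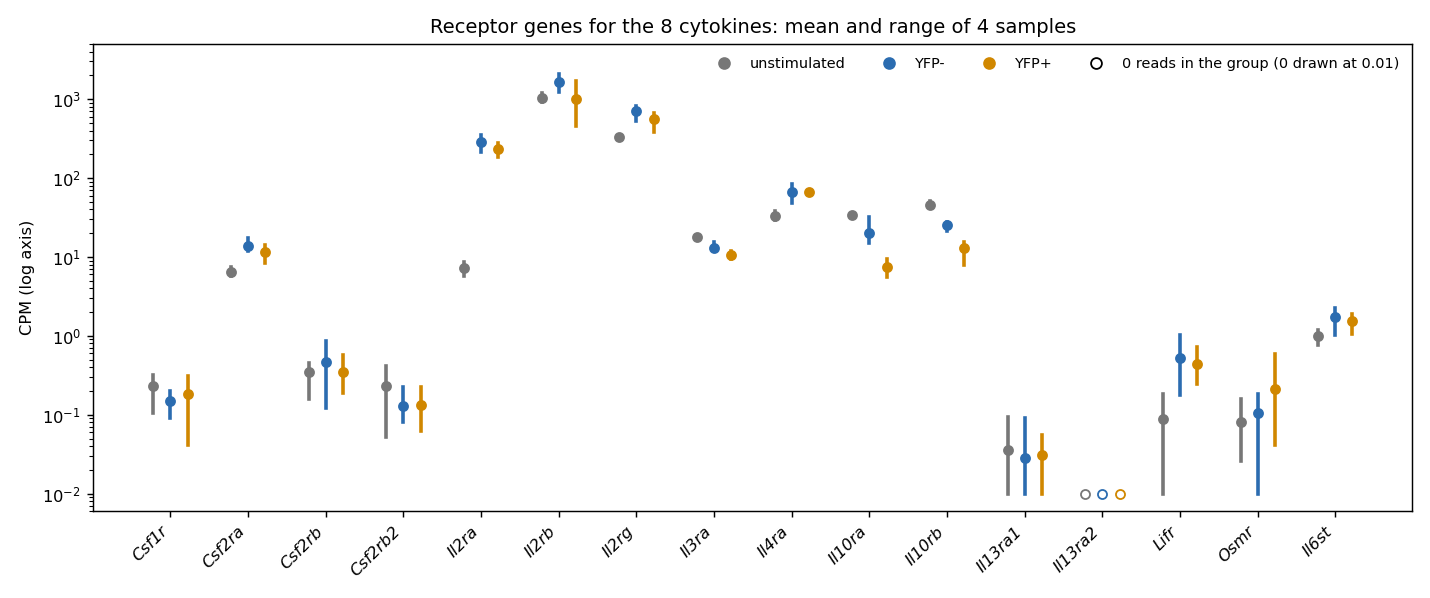
Receptor genes for the 8 cytokines, as mean CPM (points) and range of 4 samples (lines) on a log axis, by group. Il2ra goes from 7.20 CPM in unstimulated samples to 288 in YFP- samples, and Csf1r, Lifr, Osmr and Il13ra1 stay at or below 0.522 CPM by group mean.

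Other cytokines of the same families were counted next, 24 genes of which 3 passed the filter. Clcf1, a further IL-6 family cytokine, averaged 14.9 ± 1.76, 48.3 ± 11.2 and 71.6 ± 14.5 CPM in unstimulated, YFP- and YFP+ samples (SD, n = 4). It was higher in all 3 comparisons, by 0.58 in YFP+ over YFP- (limma adjusted p = 0.047). Il15, the cytokine used for priming, averaged 0.669 ± 0.222, 2.76 ± 0.417 and 0.278 ± 0.127 CPM and so was highest in YFP- samples, like Lif. It was 3.35 lower on the log2 scale in YFP+ than in YFP- samples (adjusted p = 5.3e-05). Flt3l, a growth factor for dendritic cell progenitors, averaged 25.8, 8.74 and 5.45 CPM and was lower in all 3 comparisons. Under quantile normalization Flt3l in YFP+ over YFP- and Il15 in YFP+ over unstimulated samples were no longer called. Among those that failed the filter, Il6 averaged 0.0326, 0.368 and 1.22 CPM, and it was named after its values were seen.

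Among 8 kinases and STAT factors that relay these receptors, all tested, Stat5a rose from 9.31 ± 1.35 CPM (SD, n = 4) in unstimulated samples to 75.8 ± 13.4 and 89.9 ± 10.6 in YFP- and YFP+ samples. In YFP- over unstimulated samples 5 of the 8 were higher and 2 lower (Jak1 and Jak3), and in YFP+ over unstimulated 3 were higher and the same 2 lower. In YFP+ over YFP- 0 were higher and 4 lower. Under quantile normalization 2 were higher and 2 lower in YFP- over unstimulated, and 3 and 2 with totals that left out rRNA-like features. With centring or trimmed-mean scaling 2 were higher and 2 lower in YFP+ over YFP-. Of 22 factors known to bind cytokine promoters, all tested, 8 were higher and 4 lower in YFP- over unstimulated samples. The higher were the NF-kB genes Nfkb1, Nfkb2, Rel and Relb, the AP-1 genes Fosb, Fosl1 and Junb, and Bach2. The lower were the NFAT genes Nfatc2 and Nfatc3, with Runx3 and Prdm1. In YFP+ over unstimulated samples 7 were higher, the same genes without Bach2, and 9 lower. The AP-1 genes Fos, Fosl2 and Jun, and Bach2, were among these lower genes. In YFP+ over YFP- 0 of the 22 were higher and 10 lower, which became 1 and 8 with centring or quantile normalization. Fos, Fosl2, Jun and Bach2 were among those 10, and Fosl2 lost its call under both of these scalings. For both lists, the shares over all genes tested were 30.2% higher and 20.9% lower in YFP- over unstimulated samples. They were 27.5% and 33.3% in YFP+ over unstimulated samples and 3.28% and 18.5% in YFP+ over YFP-. Transcripts of the 22 factors were measured, not their activity.

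The genes most like each tested member were found by Pearson correlation of log2 CPM over the 12 samples, which share libraries and fall into 3 groups, so the values describe and carry no test. Among the genes most like Csf1 were Penk (r = 0.979) and Mgat3 (0.9751). Among those most like Csf2 were Cdon (0.983) and Dot1l (0.980). Penk, which encodes the opioid peptide precursor proenkephalin, averaged 0.101, 46.8 and 115 CPM in unstimulated, YFP- and YFP+ samples, the same order as Csf1. Il2 was most like Morrbid (0.966), Snrnp27 (0.949) and the NK receptor gene Klra3 (0.946). Lif was most like B3glct (0.905), Smpdl3b (0.892) and St13 (0.885), and Osm like Zbtb32 (0.912), Pkd1l3 (0.908) and Ndufaf5 (0.886). No gene stood among the 3 most alike of more than 1 member.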

How the data were processed

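RNA of 12 sorted NK cell samples was turned into cDNA (SMARTer Ultra Low kit, 10 ng input) and sequenced from both ends on a NovaSeq instrument, per the labels' protocols. The submitters' processing notes name bcl2fastq, STAR 2.7.9a, Subread, featureCounts 2.0.3 and GRCm38, and use of strand in counting is not given in the sources used here. What the authors deposited is a single table holding moderated log2 CPM, per the file headers. It has 55774 lines, from which 287 duplicates were removed, and 0 of its per-sample columns lack a sample.

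These deposited log2 values equal log2 of the reads plus a prior, per library total plus 2 priors, with a prior of 0.5 reads that scales with library size (largest difference 5.15e-14). Whole reads followed for 100% of values within 0.01 reads, and CPM was computed from them. A floor of 3 reads and 95% exact intervals of summed ratios cover counting error only, since no molecular identifiers are named. Gene positions and exonic lengths come from GENCODE M21 on GRCm38, which held 55227 identifiers (99.5%), and promoters from RefSeq on GRCm38.p6.

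Genes over a log2 CPM of 0 in 4 or more samples were fitted in limma 3.58.1 (R 4.3.3) over all 12 samples with an intensity trend, and called at a Benjamini-Hochberg adjusted p under 0.05. Il3, Il10 and Il13, which failed the filter, were tested by 2-sided exact permutation of CPM. Alternatives covered filters, pseudocounts, scalings, weights, moderation, the block and left-out replicates. Leaving out each of the 12 libraries on its own was added after seeing the data. The fit was tested on simulated data. The remaining work was done in Python 3.11.15 with pandas 2.3.3, scipy 1.17.1, numpy 2.4.6 and, for plots, matplotlib 3.10.9.

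The 8 genes, the gene and marker lists and the tests were chosen with earlier results of these data known. Named genes are the members, their 3 most alike genes, their neighbours within 250 kb, and list genes needed for counts or roles. Of the most alike genes, 1 for Csf1 and 1 for Csf2 are not reported here.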

Additional observations from a re-analysis of the deposited data

Results flagged for a closer look

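Of 23 sets of 4 samples (1 gene in 1 group, with Il3 at 0 reads in unstimulated samples left out) and 6 sets of library totals and rRNA-like shares, 1 had a sample far from the others by Dixon's ratio. It was Il10 in YFP+ samples, where sample m3 had 2 reads and the other 3 had 0, so the ratio was 1. Chance alone puts about 1 in 20 such sets past the limit, and 2 reads lie under the floor of 3.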

How the results depend on the processing

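The calls of Csf1, Csf2 and Lif for YFP- over unstimulated, and of Csf1, Csf2 and Il2 for YFP+ over unstimulated, held under every alternative in which they were tested, 30 or 31 each. Csf1, Csf2 and Lif passed the main filter through stimulated samples alone, so their differences are partly built into it. With no filter Lif in YFP- over unstimulated stayed only just under the threshold (limma adjusted p = 0.049). Il2 in YFP- over unstimulated was lost with no filter (0.89, adjusted p = 0.078). Over all alternatives, 420 values of single members kept direction and side of the threshold, 32 lost and 9 gained a call, and 7 changed sign. The sign changes were for Osm in YFP- over unstimulated, with -0.075 under centring, -0.12 under quantile normalization, -0.12 without rRNA-like features, -0.10 with sample weights, -0.21 without replicate m4 and -0.20 without unstimulated m4 (up to 0.27 without other libraries). The other was Il13 in YFP+ over YFP-, 0.12 on the log2 scale in limma with no filter against a CPM difference of -0.0113. None of these was called, and the cause was not tested. Lif in YFP+ over unstimulated was called under quantile normalization (1.06, adjusted p = 0.040).

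The number of genes called in YFP+ over YFP- was 2691, and 1583 with no filter, where 55487 features shared the adjustment. Leaving out replicates or single libraries gave 1571 to 3193. For YFP- over unstimulated the count was 6321 and this range 4717 to 6780, and for YFP+ over unstimulated 7522 and 6464 to 7791. The same replicate labels recur in each group, but same-labelled samples did not all deviate together, with correlations of -0.06 to 0.38, and 3 of 4 in YFP+ over YFP-, 1 of 4 and 2 of 4 correlated best with their own label. With the replicate block the counts were 3098, 6682 and 7774, and no call of a member changed. Depth limits Il10 and Il13 in all groups and Csf1, Csf2 and Il3 in unstimulated samples, where differences under 3 reads cannot be shown.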
